A study of Mus musculus with 2 samples.

Results

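Antigen presentation genes of the major histocompatibility complex (MHC) were examined in microglia, the resident macrophages of nervous tissue, sorted from mouse retina at postnatal day 5. The genes were chosen by name from the textbook pathway, as 6 members of the class I pathway (H2-K1, H2-D1, B2m, Tap1, Tap2 and Tapbp) and 4 of the class II pathway (H2-Aa, H2-Ab1, H2-Eb1 and Cd74). Of these 10, 8 had a row among the 13549 genes in the count table, and all 8 had at least 20 reads over both libraries, as did 13037 genes of the table, which are called assessed below. H2-Aa and H2-Eb1 had no row and were not analysed here, so the class II values below rest on H2-Ab1 and Cd74.

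Both groups came from animals of the genotype CD11c-Cre-gfp;Rosa-TDTom at postnatal day 5, in which the promoter of CD11c (Itgax) drives a Cre recombinase with GFP, and Cre switches on a lasting TdTomato reporter. Cells with GFP and TdTomato (Cd11c-active, 4041 cells) were sorted apart from cells with TdTomato alone (Cd11c-lineage, 5441 cells). Per the labels, the material came from 8 retinas, with 4 of either sex, and each group gave 1 library. Neither group lacks the transgene or the Cre history, the reporter records use of the promoter at any earlier time, and CD11c is also a marker of dendritic cells. With 1 library per group no difference has a replicate check, and no p-value is given. In such bulk libraries, fewer cells of a type and less RNA per cell cannot be told apart.

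MHC class I molecules display peptides made inside the cell to CD8 T cells. A heavy chain, such as those encoded by H2-K1 and H2-D1, pairs with beta-2 microglobulin (B2m), after the transporter formed by Tap1 and Tap2 has pumped peptides into the endoplasmic reticulum and tapasin (Tapbp) has helped to load them. MHC class II molecules display peptides from engulfed material to CD4 T cells. They are pairs of an alpha and a beta chain (H2-Aa with H2-Ab1, H2-Eb1 as a further beta chain), escorted by the invariant chain (Cd74), and dendritic cells, B cells and border macrophages are known for high levels of them. Resting microglia are known for low class II levels.

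The class I heavy chain and B2m promoters carry a shared pair of short elements, and they are shown because these genes are the most abundant members. The sequences are from RefSeq for GRCm38.p6, matched by symbol. In H2-K1 (chr17:34000339-34000473, minus strand), H2-D1 (chr17:35262908-35263042, plus strand), B2m (chr2:122147524-122147658, plus strand) and H2-Aa (chr17:34287847-34287982, minus strand), a TGACG was followed by an ATTGG on the strand of the gene. Each window lies before an annotated start, for H2-K1 before the further downstream of its 2 entries, so that the last bases of that window lie past the other start. All are written 5′ to 3′ on the strand of the gene. Capitals mark the pair, in which ATTGG is the reverse complement of CCAAT.
H2-K1: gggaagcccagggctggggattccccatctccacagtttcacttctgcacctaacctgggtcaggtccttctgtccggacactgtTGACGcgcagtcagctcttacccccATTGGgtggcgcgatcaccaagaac
H2-D1: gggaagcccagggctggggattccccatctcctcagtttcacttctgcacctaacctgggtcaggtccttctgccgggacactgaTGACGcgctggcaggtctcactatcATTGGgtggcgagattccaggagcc
B2m: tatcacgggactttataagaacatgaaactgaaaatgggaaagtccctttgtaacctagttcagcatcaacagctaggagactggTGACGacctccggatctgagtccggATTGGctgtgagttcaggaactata
H2-Aa: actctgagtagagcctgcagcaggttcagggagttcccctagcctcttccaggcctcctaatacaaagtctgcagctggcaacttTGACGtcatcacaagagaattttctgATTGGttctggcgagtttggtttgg

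From the first base of TGACG to the first base of ATTGG there were 25 bases in H2-K1, H2-D1 and B2m, and 26 in H2-Aa. Of all 32851 promoters of 300 bases in the table, searched on both strands, 31 (0.0944%) held the pair at 25 bases and 54 (0.164%) held it at either spacing. The single motifs were more common, with TGACG in 20.8% of promoters and CCAAT in 37.4%, and every pair also counts as a match to each. As background, the X2 and Y boxes of the module that the class II transactivator and its class I relative Nlrc5 act through have these letters. Matches are letters in a window and not measured binding. The table had no entry for Tap2, H2-Ab1 or Cd74, and the pair was not found in the windows of Tap1, Tapbp and H2-Eb1.

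Tap1 is shown because it stood among the members that differed most between the libraries and because its promoter window shares 275 of 300 bases with that of Psmb9, a subunit of the immunoproteasome encoded on the other strand. The annotated starts of both genes lie 226 bases apart. In gene order on GRCm38.p6, Psmb9, Tap1, Psmb8 and Tap2 neighbour each other, with H2-Ob, H2-Ab1 and H2-Aa further along. The 250 bases before the start of Tap1 (chr17:34187306-34187555, plus strand) are written with CCAAT and TGACG in capitals.
Tap1: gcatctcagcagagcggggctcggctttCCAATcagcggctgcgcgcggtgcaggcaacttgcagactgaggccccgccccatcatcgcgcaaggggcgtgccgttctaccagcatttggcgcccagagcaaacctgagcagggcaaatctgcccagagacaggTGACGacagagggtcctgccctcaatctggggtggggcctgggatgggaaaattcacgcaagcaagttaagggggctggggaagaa

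The libraries held 12943998 reads (Cd11c-active) and 13402625 reads (Cd11c-lineage) over the listed genes. Ratios are Cd11c-active over Cd11c-lineage on the log2 scale, after scaling with TMM factors, which assume that most genes are alike. Scaling to library totals would lower every ratio by 0.14 and move the median of all 13037 assessed genes from 0.01 to -0.13. The libraries differed widely in genes with few reads. A gene was counted as past 2-fold at an absolute log2 ratio of at least 1. By that measure 44.9% of the assessed genes were past 2-fold, 23.3% higher and 21.6% lower in Cd11c-active. This share was 56.6% where both libraries together held 200 to 399 reads of a gene, 39.2% from 400 to 799, 21.7% from 800 to 1599, 8.94% from 1600 to 3199, 1.31% from 6400 to 12799 and 1.85% from 12800 to 25599. Each member is therefore read against genes with as many reads, and its 95% interval (exact, Clopper-Pearson) covers counting error only.

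By the length of all exons of a gene, B2m and the class I heavy chains stood highest in both libraries and the class II chain H2-Ab1 lowest. Cd74 stood above the class I transporter genes by this length. Compared per length, in RPKM (reads per kilobase of exon, scaled to library size), the order of the levels in Cd11c-active was B2m, H2-D1, H2-K1, Tapbp, Cd74, Tap1, Tap2 and H2-Ab1, and the same order held in Cd11c-lineage. B2m stood at 1064 RPKM in Cd11c-active and at 672 in Cd11c-lineage, rank 24 and rank 29 of 13499 genes with a length. H2-Ab1 stood at 7.16 and 5.82 RPKM, rank 5172 and rank 5771. Without replicates the spread of a level is not known, so neighbours in the order that lie close, such as Cd74 and Tap1 in Cd11c-active, are not separated by these data. All exons of a gene together made 2.568 kilobases for H2-Ab1 and 3.781 for Tap2, against longest transcripts of 1212 and 3442 bases. The place of H2-Ab1 below Tap2 in Cd11c-lineage, and of Cd74 above Tap1 in Cd11c-active, therefore depends on the length chosen. The same limit holds for the ratios per length below.

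**Figure D1:**
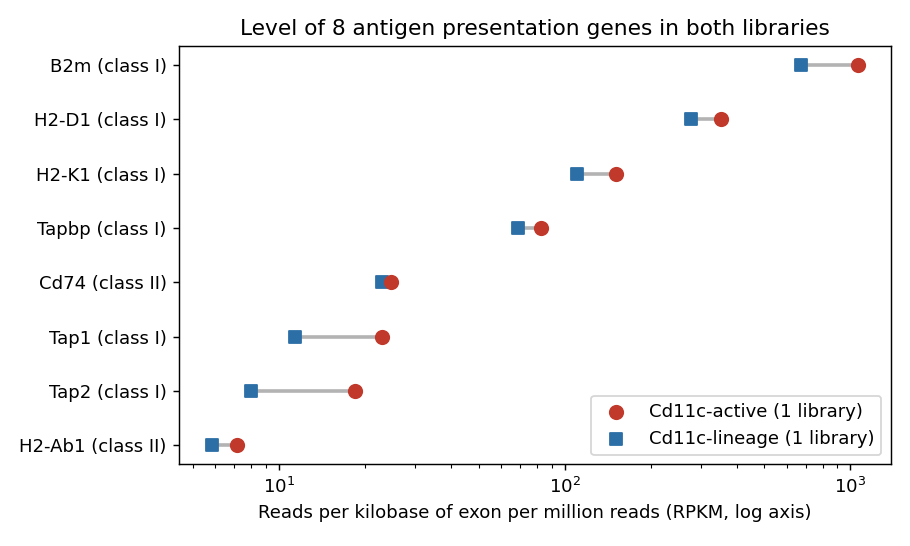
Level of each member with a row in the Cd11c-active library (circle) and the Cd11c-lineage library (square), in RPKM on a log axis, with 1 library per group and no error bar. The levels run from 5.82 RPKM for H2-Ab1 in Cd11c-lineage to 1064 for B2m in Cd11c-active, and after TMM scaling every circle lies to the right of its square, an order that turns for Cd74 under library totals.

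The heavy chain genes were modestly higher in Cd11c-active. H2-K1 (ENSMUSG00000061232) had 5479 reads in Cd11c-active against 4559 in Cd11c-lineage, which is 444 and 324 CPM, reads scaled to a common library size. Its log2 ratio was 0.45 (0.39 to 0.51). H2-D1 (ENSMUSG00000073411), with the most reads of any member over both libraries together, had 11194 against 10047 reads, or 907 and 715 CPM. The log2 ratio of H2-D1 was 0.34 (0.30 to 0.38). Both ratios lay inside the 10th to 90th percentile of genes with as many reads, which was -0.45 to 0.47 around H2-K1 and -0.40 to 0.53 around H2-D1. H2-D1 stood 2.33 times above H2-K1 per length in Cd11c-active and 2.51 times in Cd11c-lineage.

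These heavy chains are paralogs, so the assignment of their reads was examined. Of all stretches of 50 bases in the longest transcript, 8.11% in H2-K1 and 14.3% in H2-D1 also occur in transcripts of another gene. At 100 bases the shares were 0% and 4.64%. The authors' counting could split or drop reads from such stretches, and the level of each heavy chain is uncertain by that part. B2m, H2-Ab1 and Cd74 had no shared stretch at either length.

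B2m (ENSMUSG00000060802), the light chain that every class I molecule needs, had 11301 reads in Cd11c-active against 8123 in Cd11c-lineage, or 915 and 578 CPM. Its log2 ratio of 0.66 (0.62 to 0.70) was above the 90th percentile of genes with 12800 to 25599 reads, which was 0.53, and 95.7% of those 162 genes had a lower ratio. B2m was under 2-fold. Per length B2m exceeded H2-K1 by 7.05 times in Cd11c-active and 6.09 times in Cd11c-lineage. No scaling of the libraries touches these ratios within a library, but they depend on the length used. All exons of H2-K1 made 2.938 kilobases, against 1874 bases in its longest transcript, so its longest transcript would give smaller ratios.

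The transporter genes differed most among the members. Tap1 (ENSMUSG00000037321) had 1555 reads in Cd11c-active against 876 in Cd11c-lineage, or 126 and 62.3 CPM, a log2 ratio of 1.01 (0.89 to 1.14). Tap2 (ENSMUSG00000024339) had 864 and 425 reads, or 70.0 and 30.2 CPM, a log2 ratio of 1.21 (1.04 to 1.38). They were the 2 members past 2-fold, both higher in Cd11c-active, of 8 assessed, where 44.9% of all assessed genes were past 2-fold and 23.3% were past it in that direction. Except H2-Ab1, the members with a row had more reads than the median gene (524 over both libraries), so these shares are no like background for them. Against genes with as many reads, 95.4% of 1599 genes with 1600 to 3199 reads had a lower ratio than Tap1, and 91.3% of 1984 genes with 800 to 1599 reads had a lower ratio than Tap2. Tap1 did not reach 2-fold under library totals, where the count of members past it was 1. At a fold of 1.5 the count was 3 with B2m, where 30.6% of assessed genes were as much higher.

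Tapbp (ENSMUSG00000024308), whose product bridges the transporter and the empty heavy chain, had 3692 reads in Cd11c-active against 3509 in Cd11c-lineage, or 299 and 250 CPM. Its log2 ratio was 0.26 (0.19 to 0.33), inside the 10th to 90th percentile of genes with as many reads, which was -0.45 to 0.47. Tapbp thus did not share the size of the difference of Tap1 and Tap2. Per length it exceeded Tap1 by 3.58 times in Cd11c-active and by 6.05 times in Cd11c-lineage.

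Of the class II members, H2-Ab1 had a ratio between those of Tapbp and H2-D1, and Cd74 had the lowest ratio of the 8 members with a row. H2-Ab1 (ENSMUSG00000073421), the beta chain of the I-A molecule, had 227 reads in Cd11c-active against 210 in Cd11c-lineage, or 18.4 and 14.9 CPM. Its log2 ratio was 0.30 (0.02 to 0.58), where the 10th to 90th percentile of genes with 400 to 799 reads was -1.39 to 1.66. Cd74 (ENSMUSG00000024610) had 513 and 543 reads, or 41.5 and 38.6 CPM. The log2 ratio of Cd74 was 0.10 (-0.07 to 0.28) and turned to -0.032 under library totals. The 10th to 90th percentile of genes with as many reads as Cd74 was -0.97 to 1.13, and the ratio of Cd74 lay well inside it. Per length Cd74 exceeded H2-Ab1 by 3.46 times in Cd11c-active and 3.95 times in Cd11c-lineage.

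The ratio of a gene between these libraries also moved with transcript length and GC content. With that trend removed, an alternative chosen after the data were seen, the class I log2 ratios were 1.06 for Tap2, 0.91 for Tap1, 0.44 for B2m, 0.19 for H2-K1, 0.09 for H2-D1 and 0.07 for Tapbp. H2-Ab1 and Cd74 then turned lower in Cd11c-active, at -0.12 and -0.26. The order of the members by ratio was otherwise close to the one above, with Tap2, Tap1 and B2m first.

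**Figure D2:**
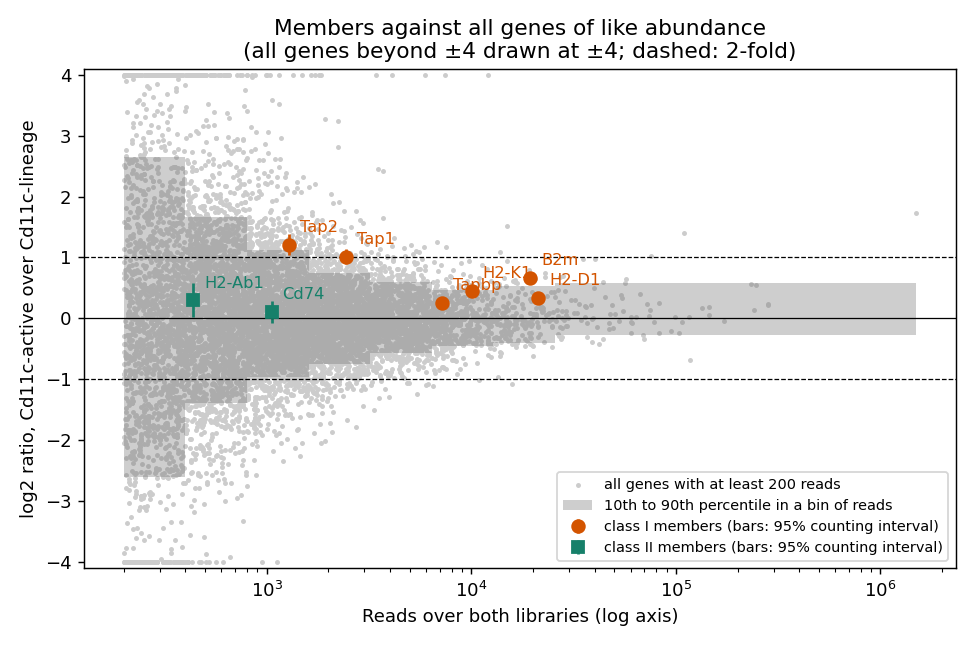
Log2 ratio of Cd11c-active over Cd11c-lineage against reads over both libraries (log axis), with all genes of at least 200 reads in light grey, the 10th to 90th percentile of each bin of reads as a dark band, and members with 95% counting intervals. Tap1, Tap2 and B2m lie above the band of their bin, and H2-K1, H2-D1, Tapbp, H2-Ab1 and Cd74 lie inside it.

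Class I was then compared with class II, since CD11c also marks dendritic cells, which carry much class II. The 6 class I members together had 34085 reads in Cd11c-active against 27539 in Cd11c-lineage, or 2761 and 1960 CPM. The log2 ratio of this sum was 0.49 (0.47 to 0.52), or 0.36 under library totals and 0.27 with the trend of length and GC content removed. H2-Ab1 and Cd74 together had 740 and 753 reads, or 59.9 and 53.6 CPM, a log2 ratio of 0.16 (0.01 to 0.31). The class II ratio was 0.025 under library totals and turned to -0.22 with the trend of length and GC content removed. Class I reads outnumbered class II reads by 46.1 to 1 in Cd11c-active and by 36.6 to 1 in Cd11c-lineage. These are reads of 6 class I genes and of 2 class II genes, not levels per length. They therefore depend on the number and length of the genes counted, as do the shares below.

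Class II made up 2.12% (1.98 to 2.28) of the members' reads in Cd11c-active and 2.66% (2.48 to 2.86) in Cd11c-lineage. These intervals cover counting error only. The difference between the log2 ratios, class I minus class II, was 0.33, with 0.16 to 0.50 as the widest span that both counting intervals allow, and no scaling of the libraries changes it. It was 0.28 without H2-D1 and Cd74, the most counted member of each class over both libraries, 0.32 with the heavy chains and B2m alone as class I, 0.37 with Tap1, Tap2 and Tapbp alone, and 0.49 with the trend of length and GC content removed. The ratios of the members also overlapped between the classes, as H2-Ab1 (0.30) lay above Tapbp (0.26). The 10th to 90th percentile of single genes with as many reads was wide beside this difference. It was -1.39 to 1.66 around H2-Ab1 and -0.97 to 1.13 around Cd74.

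The rest of the pathway was described with 6 lists of 71 genes in all. Of these, 61 had a row and at least 20 reads, 5 were past 2-fold higher in Cd11c-active and 7 lower, and their median log2 ratio was 0.03 beside 0.01 for all assessed genes. The 19.7% past 2-fold in either direction stand beside 44.9% of all assessed genes, but the lists were better counted, with a median of 2147 reads over both libraries against 524. The 5 higher genes all had fewer than 200 reads over both libraries and 0 in Cd11c-lineage.

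Among other class I heavy chains and class I-like molecules, 10 of 17 were assessed, with 2 past 2-fold higher and 1 lower, where 23.3% and 21.6% of all assessed genes were, and a median log2 ratio of 0.30, or 0.16 under library totals and 0.13 with the trend of length and GC content removed. The log2 ratio of their summed reads had the other sign, at -0.05. Fcgrt, the neonatal Fc receptor that binds antibody and albumin, had 2270 reads in Cd11c-active against 3339 in Cd11c-lineage, a log2 ratio of -0.37. H2-T23 encodes Qa-1, a ligand of inhibitory receptors on natural killer cells. It had 1358 and 1179 reads and a log2 ratio of 0.39. Cd1d1, which presents lipids to natural killer T cells, had 196 reads against 0, at least 74.4-fold higher in Cd11c-active with 3 reads taken as the limit that a count of 0 allows in that library. Its counting interval, which also covers the error of the 196 reads, starts at a log2 ratio of 5.90. H2-Q6 had 33 reads against 0, and H2-Q7 had 0 against 74. In H2-Q6 and H2-Q7, 32.0% and 28.4% of stretches of 50 bases occur in other genes, so their reads may have been exchanged or dropped. At such low counts a 0 was common, since 71.0% of all genes with a sum of 50 to 99 reads, and 37.9% with 100 to 199, were at 0 in one of the libraries.

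None of the 7 genes of class I peptide loading and trimming was past 2-fold (0 higher, 0 lower). Their median was 0.06, or -0.08 under library totals and 0.12 with the trend of length and GC content removed. The list had a median of 18305 reads, and 1.85% of all genes with 12800 to 25599 reads were past 2-fold. The chaperones Canx and Calr, which hold the heavy chain before loading, led by reads. Canx had 15876 and 16896 reads and a log2 ratio of 0.10. Calr had 13919 and 15207 reads and a log2 ratio of 0.06. Erap1, the peptidase that trims peptides to class I length, stood at -0.04.

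Of 6 immunoproteasome and activator genes, 1 was past 2-fold higher (16.7%, beside 23.3% of all assessed genes) and the median was 0.15, or 0.012 under library totals and -0.094 with the trend of length and GC content removed. Psmb9, whose start region overlaps that of Tap1 printed above, had 95 reads against 0, at least 36.0-fold higher in Cd11c-active against the limit of 3 reads. The counting interval of its log2 ratio starts at 4.85, and 88.5% of genes with 50 to 99 reads were past 2-fold. Psmb8, which lies between Tap1 and Tap2, had 874 and 990 reads and a log2 ratio of 0.01 (-0.13 to 0.14). Psme2 and Psme1, subunits of the interferon-inducible proteasome activator, stood at -0.13 and 0.75.

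Of the 13 other class II pathway genes, 12 were assessed, 0 were past 2-fold higher and 1 was lower, where 23.3% and 21.6% of all assessed genes were. The median was 0.02, or -0.12 under library totals. The list had a median of 2220 reads. H2-Ob, part of the inhibitor of peptide exchange, had 89 reads in Cd11c-active against 360 in Cd11c-lineage, a log2 ratio of -1.82. Genes with 400 to 799 reads were past 2-fold in 39.2%, and 5.06% of them had a lower ratio than H2-Ob. The cathepsin Ctss, which cuts the invariant chain, had 49080 and 58201 reads, a log2 ratio of -0.06, and Lgmn, an endosomal protease, had 46585 and 52245, a ratio of 0.02. These protease genes also serve general lysosomal breakdown. The exchange factor is a pair of H2-DMa (1209 and 1060 reads, log2 ratio 0.38) with a beta chain, of which H2-DMb1 (544 and 1177 reads) stood at -0.93, with 5.69% of genes with as many reads lower, and was past 2-fold lower under library totals. The other beta chain gene, H2-DMb2, had 91 and 54 reads and stood at 0.93. H2-DMb1 shares 27.2% and H2-DMb2 29.5% of stretches of 50 bases with other genes. Ifi30, a reductase that opens disulfide bonds of engulfed proteins, had 3079 and 2097 reads and a ratio of 0.74, above that of 94.9% of genes with as many reads.

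Of 17 assessed regulators of MHC transcription, 0 were past 2-fold higher and 5 lower, with a median log2 ratio of -0.18. Beside these 29.4% lower, 21.6% of all assessed genes were lower, and the list was better counted, with a median of 1771 reads against 524. Nlrc5, the class I transactivator, had 53 reads in Cd11c-active against 232 in Cd11c-lineage, a log2 ratio of -1.93. Rfx5, the DNA-binding subunit at the X box, had 37 and 227 reads, a ratio of -2.41. Rfxap, its partner, had 45 and 154 reads, a ratio of -1.58. Nfyc and Nfyb, subunits of the factor that binds the Y box, had 79 against 671 reads (log2 ratio -2.89) and 79 against 184 (-1.03). Against genes with as many reads, Nfyc lay below the 10th to 90th percentile of -1.39 to 1.66, with 1.09% of 2014 genes lower. Nlrc5, Rfx5, Rfxap and Nfyb lay inside the 10th to 90th percentile of theirs. Irf8 and Ifngr1 led by reads with ratios of -0.12 and 0.33, Spi1 stood at -0.14 and Nfya at -0.18. Ifngr2, the other chain of the interferon gamma receptor, had 1917 and 1317 reads and a ratio of 0.73, above that of 94.5% of genes with as many reads. Ciita, the class II transactivator, had no row and was not analysed here.

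Of 9 assessed costimulatory and checkpoint ligands, 2 were past 2-fold higher (22.2%, beside 23.3% of all assessed genes) and 0 lower, with a median of 0.07, or -0.07 under library totals. Cd274 had 123 and 260 reads and a log2 ratio of -0.89, and was past 2-fold lower under library totals. Of genes with as many reads, 56.6% were past 2-fold. Cd80 and Cd40, surface signals of activated antigen-presenting cells, had 64 and 57 reads in Cd11c-active against 0 in Cd11c-lineage, where 88.5% of all genes with 50 to 99 reads were past 2-fold. Cd86, the other partner of CD28, was better counted, with 1818 and 1974 reads and a log2 ratio of 0.07. Vsir and Cd83 led by reads, with ratios of 0.03 and 0.48.

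**Figure D3:**
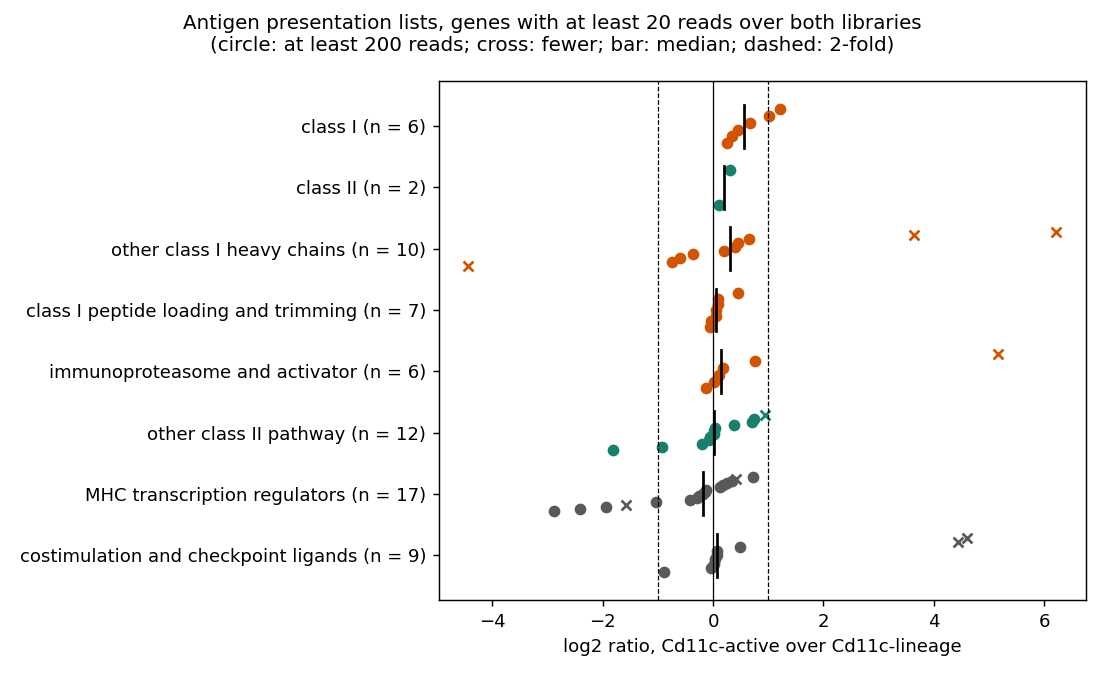
Log2 ratio of each gene with at least 20 reads, by list, with genes of at least 200 reads as circles, less counted genes as crosses and the list median as a bar. Genes with 0 reads in either library are drawn at the bound given by 3 reads. Crosses make up all points past 2-fold to the right outside the class I members, and 4 regulators with at least 200 reads lie past 2-fold to the left.

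Markers of other cells that carry MHC molecules were set beside these values. Of 20 dendritic cell markers 10 had a row, and their summed level was 560 CPM in the Cd11c-active library against 650 in the other, led by Siglech (2139 and 3539 reads) and Tcf4 (1579 and 2904), which microglia or other retinal cells also express. Without Siglech and Tcf4, left out after their values were seen, the sum was 3201 reads in Cd11c-active against 2685 in the other library, and its log2 ratio turned from -0.21 to 0.44. Most of that sum came from Fscn1, an actin-bundling gene of mature dendritic cells that other cells express too, with 2544 against 1850 reads and a log2 ratio of 0.65, above that of 91.9% of genes with as many reads. The median log2 ratio of the 7 assessed genes left was -0.17, with 3 higher and 4 lower in Cd11c-active. Cd24a stood at -0.83, Bst2 at -0.29 and Snx22 at -0.17. Flt3, Xcr1, Clec9a, Ccr7, Cd209a, Clec10a and Mgl2 had no row and were not analysed here. Zbtb46 had 200 reads against 0, Batf3 39 against 14 and Irf4 0 against 182. Of all genes with as many reads as these 3, in turn, 56.6%, 88.5% and 74.6% were past 2-fold. Among them 95.3% had a lower ratio than Zbtb46 and 1.86% a lower one than Irf4. Which cells these reads came from was not tested. Among 5 B cell markers 3 had a row, at 20.3 and 19.0 CPM in sum. Cd79b had 141 and 184 reads, Ebf1 55 and 82, and Cd79a 55 against 1 (log2 ratio 5.40, counting interval 3.43 to 11.30), while Ms4a1 and Pax5 were not analysed here.

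Of 10 border macrophage markers 7 had a row and 5 were past 2-fold lower in Cd11c-active, where 21.6% of all assessed genes were. Among genes with as many reads, the share past 2-fold in either direction was 97.1% for Ms4a7 and 74.6% for Lyve1 and Cd163. It was 56.6% for F13a1 and 21.7% for Mrc1. Lyve1, Cd163, Ms4a7 and F13a1 were at 0 reads there and had 176, 134, 42 and 254 in Cd11c-lineage, and Mrc1 had 262 against 1230. Among genes with as many reads, 0.554% had a lower ratio than Mrc1, 2.25% than Lyve1 and 2.57% than F13a1, while Cd163 and Ms4a7 lay at the 10th percentile. Their summed level of 1599 and 1498 CPM came mostly from Stab1 (19330 and 18987 reads), which microglia also express. Of 8 monocyte and neutrophil markers 4 had a row, at 2.83 and 17.0 CPM in sum, with Plac8 at 0 against 133 reads and S100a9 at 0 against 67, while Ccr2, a chemokine receptor of monocytes, had 35 against 0. How far these cells contributed to the class II reads was not tested.

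All 9 endothelial markers were past 2-fold higher in Cd11c-active, beside 23.3% of all assessed genes, with a summed level of 727 CPM against 73.7, and Cldn5, Flt1, Tek, Esam and Plvap were at 0 in Cd11c-lineage. Pecam1 and Kdr, with the most reads of the list, had log2 ratios of 1.91 and 2.82. Vessel cells are known to express class I genes, and the part of these transcripts in the class I differences was not tested. The 11 microglia markers used here, led by Csf1r and Sparc (log2 ratios -0.04 and 0.17), summed to 21791 and 20941 CPM, with 0 past 2-fold. Of these markers 6 had a positive and 5 a negative log2 ratio, from -0.36 for P2ry12 to 0.58 for Trem2. The ratio of Trem2 was above that of 92.0% of genes with as many reads. The list had a median of 19771 reads, where 1.85% of all genes were past 2-fold. The high level of these markers stands beside the label of both groups as microglia. Of 12 retinal neuron and macroglia markers 10 had a row, at 2394 and 2620 CPM, led by Glul and Prox1 (log2 ratios -0.07 and -0.52). Most of that sum came from Glul, and without it, left out after its values were seen, the list had 1789 against 3517 reads, a log2 ratio of -0.79 in place of -0.13. Pdc had 0 reads against 476, Slc1a3 73 against 642 and Crx 87 against 435, while Rbpms had 325 against 126 and Rlbp1 94 against 0. Itgax itself had 2409 and 1698 reads and a log2 ratio of 0.69, close to that of B2m.

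**Figure D4:**
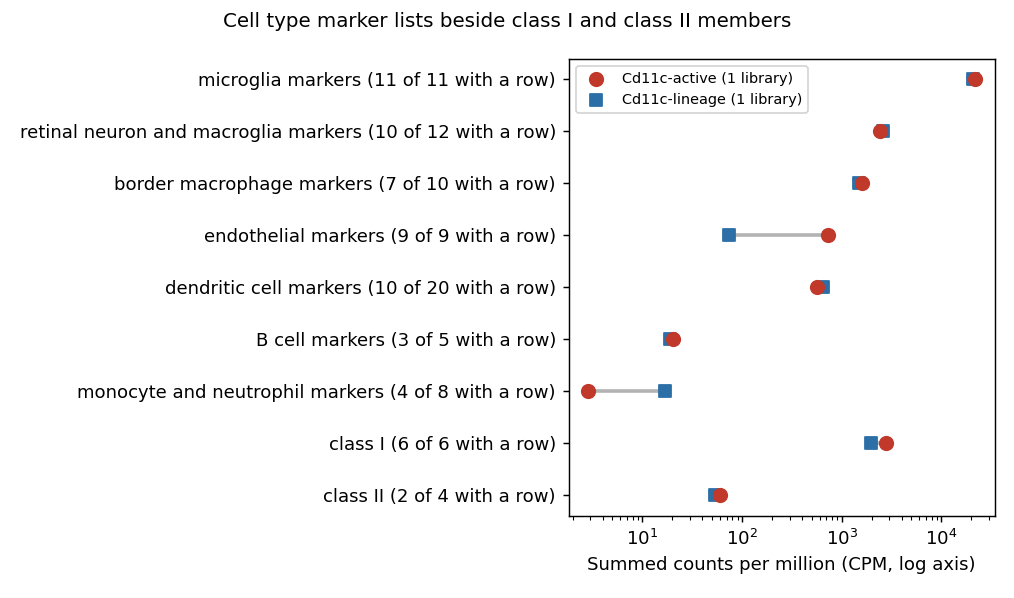
Summed CPM (log axis) of each marker list in the Cd11c-active (circle) and Cd11c-lineage (square) library, with the number of list genes that had a row, beside the class I and class II members. Endothelial markers stand at 727 against 73.7 CPM, while class II members stand at 59.9 against 53.6.

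Interferons induce class I, Tap1, Tap2 and immunoproteasome genes in many cells, so 20 interferon-stimulated genes were listed beside them. Of 17 assessed, 5 were past 2-fold higher in Cd11c-active and 5 lower, beside 23.3% and 21.6% of all assessed genes. The list had a median of 149 reads, and 74.6% of all genes with 100 to 199 reads were past 2-fold. Of its genes, 7 were at 0 reads in one of the libraries, and the median log2 ratio was -0.20. In sum they stood at 224 and 208 CPM. Stat2, Irf9 and Ifit2, with the most reads among those named here, had ratios of 0.49, -0.34 and 0.51. Gbp2 stood at -1.25 and Zbp1 at -3.50, while Ifit3 had 121 reads against 5, a log2 ratio of 4.65.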

How the data were processed

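Bulk RNA sequencing counts were used for 1 Cd11c-active and 1 Cd11c-lineage library. The authors deposited raw counts per gene without normalization, and, per the file headers, a log2 fold change with an average log2 CPM. Per the submitters' processing notes, cutadapt 3.5, STAR 2.7.9a, featureCounts 1.6.3, edgeR 4.0.16 and the build GRCm39 were used. Annotation, use of strand and handling of duplicates are not given in the sources used here. The smallest listed sum was 6 reads. The number of columns of unmapped samples was 0.

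Library sizes were scaled with TMM factors (0.954 and 1.05) from edgeR 4.0.16 in R 4.3.3. Log2 ratios used reads plus 0.5 over effective library size. With 1 library per group, the tests of edgeR and DESeq2 have no residual degrees of freedom and were not run. Genes with a sum of at least 20 reads were set against a fold of 2, and Python 3.11.15 with scipy 1.17.1 gave Clopper-Pearson intervals. A count of 0 allows up to 3 reads (0.243 CPM in Cd11c-active, 0.214 in Cd11c-lineage). Reads carry no molecular identifiers, so intervals and limits cover counting error only. Exon lengths and transcripts came from GENCODE M21 (GRCm38, 99.6% of genes matched by identifier) and served lengths and shared stretches, so RPKM is approximate for GRCm39 counts. The ratio and interval were tested on simulated data.

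All members were described. From each other list the rule named the 2 genes with the most reads and up to 4 with at least 200 reads past 2-fold, and further genes were named for their role or after their values were seen. Members and lists were chosen with earlier results of these data known. Some cell type markers fixed at the start are not reported here. Alternatives were library totals, size factors from DESeq2 1.42.0, scaling without ribosomal and mitochondrial RNA, a prior count of 2, read minimums of 0 and 200, a fold of 1.5, sums without the most counted members, class medians and, added after the data were seen, other subsets of class I, dendritic cell markers without Siglech and Tcf4, retinal markers without Glul, and removal of a trend with transcript length and GC content (fitted on 4612 genes with at least 1000 reads).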

Additional observations from a re-analysis of the deposited data

How the results depend on the processing

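The number of members past 2-fold higher in Cd11c-active, 2 in the report, was 1 under library totals, in the authors' deposited table and after removal of a trend with transcript length and GC, and 3 at a fold of 1.5. It was 0 lower in every alternative. The class I sum moved from 0.49 to 0.36 under library totals, 0.57 without H2-D1, 0.56 as a median of members and 0.27 after trend removal. The class II sum turned to -0.22 after trend removal. Cd74 turned to -0.032 under library totals and in the authors' deposited table (log2 fold change -0.032), and to -0.26 after trend removal, and H2-Ab1 turned to -0.12 there; the cause was not tested. The difference of class I minus class II is the same under any scaling of the libraries, since scaling cancels in it. Under the alternatives that can change it, it ran from 0.28 to 0.49. Those reuse the same reads of H2-Ab1, with or without Cd74, and are no independent check. It was not computed with a prior count of 2 or from the authors' deposited table. With at least 200 reads required, 0 pathway genes were past 2-fold higher, against 5, because those 5 had fewer reads and were then not counted, and 5 were lower, against 7. Size factors of DESeq2 and scaling without ribosomal RNA moved every ratio by 0.01 or less. Under library totals the medians of class I loading, other class II and costimulatory genes turned to -0.08, -0.12 and -0.07, and 9 pathway genes were past 2-fold lower. The summed dendritic cell markers turned from -0.21 to 0.44 without Siglech and Tcf4, while the median of the genes left was -0.17. No paired analysis was possible because each group had 1 library. With few reads, as for H2-Ab1, the libraries limit what can be seen.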

Other observations

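Class I pseudogenes of the locus also had reads, and were chosen after their values were seen. H2-K2, a transcribed pseudogene close to H2-K1 in gene order, had 308 reads in Cd11c-active against 112 in Cd11c-lineage, a log2 ratio of 1.64 (counting interval 1.33 to 1.97), where 39.2% of genes with 400 to 799 reads were past 2-fold. In H2-K2, 10.9% of stretches of 50 bases also occur in other genes. H2-Q5, annotated as a polymorphic pseudogene, had 6 and 94 reads, a log2 ratio of -3.68 (-5.27 to -2.61), and 35.4% of its stretches of 50 bases occur in other genes.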
